A study of Drosophila melanogaster with 8 samples.

Results

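The transcription factor genes peb (FBgn0003053), tup (FBgn0003896) and C15 (FBgn0004863) were followed by gene ID through whole-embryo RNA of Drosophila melanogaster, 3 of the 17468 gene IDs counted. The embryos were homozygous for zen[7], or heterozygous, with zen[7] on one copy of chromosome 3 and the balancer TM3, ftz-lacZ, which holds a lacZ transgene, on the other, so by its label every group carries at least 1 zen[7] chromosome and no group is wild type. Embryos of either genotype were taken at the cellular blastoderm (stage 5) and during gastrulation (stage 6-7). The labels give 100 embryos to a pool, and each of the 4 groups has 2 libraries, 8 in all. Homozygotes were recognised by PCR as embryos without a lacZ band, and whether embryos with TM3 on both chromosomes entered the heterozygous pools is not stated. The RNA came from whole embryos, so a lower RNA level in fewer cells and a lower level per cell cannot be told apart. The comparisons ask how the RNA of these genes differs between the genotypes at each stage and how it changes between the stages.

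The amnioserosa is an extraembryonic epithelium that forms along the dorsal midline, where signalling by Dpp, a BMP ligand, is strongest, and the homeodomain factor zen is needed for its formation. In textbook accounts zen and Dpp signalling turn on a set of transcription factors there, and germ band retraction and dorsal closure later depend on that tissue. The gene peb, also called hindsight, encodes a zinc-finger protein named for the failed germ band retraction of its mutants. The gene tup, also called tailup or islet, encodes a LIM-homeodomain protein of the same mutant class that also works in heart and neuron formation. C15, also called clawless, encodes a homeodomain protein related to vertebrate TLX proteins, known from the dorsal midline of the embryo and from the tip of the leg.

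The 3 genes lie on different chromosomes of the BDGP6.54 assembly. The gene peb lies on the plus strand of chromosome X at 4617564 to 4627206 and has 2 annotated transcripts. The gene tup lies on the minus strand of arm 2L at 18859507 to 18881261, has 3 transcripts, and overlaps mir-4946 on the same strand. C15 lies on the plus strand of arm 3R at 21499986 to 21512814 with 1 transcript. For C15, unlike peb and tup, the genotypes also differ in the chromosome that carries the gene itself, and an effect of the TM3 copy and an effect of zen cannot be told apart by these groups.

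Gene counts summed to 29669956 to 37770105 per library, and 9360 genes, all 3 among them, had enough reads to be tested. Levels are CPM, read counts scaled to library size with TMM factors, and intervals on read numbers cover counting error only. RNA of zen was not lower in homozygotes, with log2 differences of 0.40 at stage 5 and 0.18 at stage 6-7 (edgeR quasi-likelihood test, adjusted p = 0.234 and 1), so its level checks no genotype label. The stages lay apart on the first principal component of all genes (76% of the variance), where homozygous stage 5 replicate 1 lay at -56.2 against -45.1 to -42.1 for the other stage 5 libraries. Heterozygous stage 6-7 replicate 1 lay at 38.9 against 48.8 to 51.1. Results are therefore also given without these libraries.

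All 3 genes were lower in zen[7] homozygotes at the cellular blastoderm, where peb fell to 33.6% of the heterozygous mean level, tup to 40.6% and C15 to 20.4%. In heterozygotes peb stood at 42.1 and 51.7 CPM (46.9 ± 6.80, SD, n = 2), and in homozygotes at 16.6 and 14.97 CPM (15.8 ± 1.16). The lowest heterozygous library was thus far above the highest homozygous one, and the log2 difference was -1.57 (SE 0.143, edgeR quasi-likelihood test, adjusted p = 8.58e-05). For tup the heterozygous libraries held 42.8 and 54.4 CPM and the homozygous ones 19.7 CPM in each replicate, a log2 difference of -1.30 (SE 0.134, adjusted p = 0.000153 by edgeR). C15 was the scarcest of the 3 at this stage, with 139 and 153 reads in heterozygotes and 28 and 22 reads in homozygotes. Counting error alone puts the latter at 18.6 to 40.5 and 13.8 to 33.3 reads (95% exact Poisson intervals). In CPM these were 4.03 and 4.23 in heterozygotes against 1.04 and 0.649 in homozygotes, a log2 difference of -2.31 (SE 0.295, adjusted p = 0.000998 by edgeR).

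At stage 5 the libraries of the genotypes did not overlap for any of the 3 genes, and all 3 were called lower. Among all tested genes 1.34% were called lower in this comparison, and 21.2% had lower homozygous libraries that did not overlap the heterozygous ones. By size of the difference C15 ranked 18, peb 93 and tup 150 from the lowest of 9360 genes. Without homozygous stage 5 replicate 1 the log2 differences were -1.65 for peb, -1.31 for tup and -2.67 for C15 (edgeR adjusted p = 0.00071, 0.00105 and 0.00211). The number of all genes called at stage 5, 152 or 1.62%, rose to 804 without homozygous replicate 2 and dropped to 66 and 67 without heterozygous replicate 1 and replicate 2, whereas peb, tup and C15 passed in each of these fits.

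**Figure D1:**
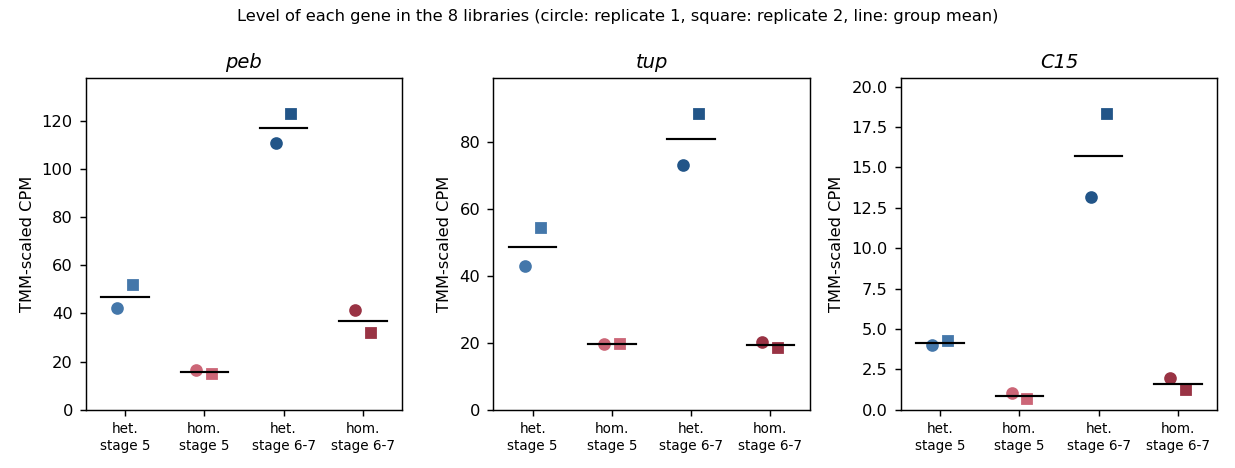
TMM-scaled CPM (vertical axes, from 0, a different scale for each gene) of peb, tup and C15 in the 8 libraries by genotype (het., heterozygous; hom., homozygous) and stage; circles are replicate 1, squares replicate 2 and lines group means. Heterozygous libraries lie above homozygous libraries of the same stage in every panel, and the homozygous libraries of tup lie between 18.4 and 20.3 CPM at both stages.

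Transcripts that mark developmental stage were read beside these values. Of 5 tested cellularization genes, nullo, which encodes a protein of the forming membrane furrows, was called lower in stage 5 homozygotes (log2 -1.07, edgeR adjusted p = 0.0287) and the other 4 were not called. Their summed level at stage 5 was 4004 and 2943 CPM in homozygous replicates 1 and 2, and 3638 and 3132 CPM in heterozygous replicates 1 and 2. Sry-alpha, also on that list, had 0 reads throughout. Of 7 maternal RNAs, 3 were called lower at stage 5, beside 1.34% of all tested genes. These included smg (log2 -0.74), which encodes an RNA-binding protein that clears maternal transcripts, and pum (log2 -0.83), a translational repressor gene. The other was bcd (log2 -1.17), the anterior morphogen gene. For these 3 RNAs a difference of stage, an effect of the TM3 copy and an effect of zen cannot be told apart by these groups. The summed level of the 7 was 1165 to 1268 CPM in homozygotes and 1386 to 1491 CPM in heterozygotes at stage 5, and the ranges at stage 6-7 were 1332 to 1418 and 1302 to 1384 CPM. Most of that sum was CycB, with means of 967 CPM in stage 5 and 1200 CPM in stage 6-7 heterozygotes, so the sum mostly follows CycB. In either genotype edgeR called 5 of the 7 lower and 1 higher at stage 6-7 than at stage 5. The part of stage in the differences of peb, tup and C15 was not tested.

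At the gastrula stage the 3 genes were lower again, with peb at 31.4%, tup at 24% and C15 at 10.1% of the heterozygous mean level in homozygotes. The heterozygous libraries held 110.8 and 122.8 CPM of peb and the homozygous ones 41.5 and 31.9 CPM (log2 -1.67, SE 0.137, edgeR adjusted p = 8.88e-06). In the same libraries tup stood at 73.1 and 88.3 CPM in heterozygotes and 20.3 and 18.4 CPM in homozygotes, a log2 difference of -2.06 (SE 0.135, adjusted p = 8.85e-07 by edgeR). C15 stood at 13.1 and 18.3 CPM against 1.94 and 1.23 CPM, or 477 and 632 reads against 72 and 42. That is a 9.91-fold lower mean in homozygotes and a log2 difference of -3.30 (SE 0.25, adjusted p = 4.27e-06 by edgeR).

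The libraries did not overlap between the genotypes at stage 6-7 either, and 3 of 3 genes were called lower, where 1.25% of all tested genes were called lower and 16.2% had lower, non-overlapping homozygous libraries. Without heterozygous stage 6-7 replicate 1 the log2 differences were -1.74 for peb, -2.19 for tup and -3.52 for C15. The 166 calls over all genes at this stage, 1.77%, became 104 and 89 without homozygous replicate 1 and replicate 2, and 105 without heterozygous replicate 2. The 3 genes passed in all of these fits too.

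The depth of the fall was not the same for the 3 genes. At stage 6-7 the 95% interval of the log2 difference ran from -3.84 to -2.76 for C15, from -2.35 to -1.77 for tup and from -1.97 to -1.37 for peb. The interval for C15 thus lay wholly below the other two, which overlapped each other. At stage 5 the interval for C15 (-2.95 to -1.68) lay below that for tup (-1.59 to -1.01) and overlapped that for peb (-1.88 to -1.27). These intervals come from fits of single genes, and no test between genes was made.

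**Figure D2:**
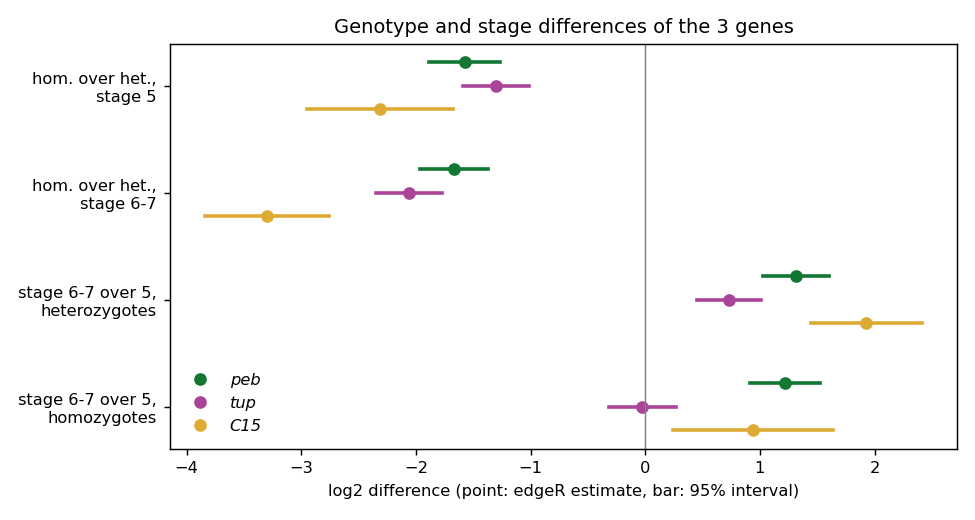
Log2 differences (horizontal axis) of peb, tup and C15 between genotypes at each stage and between stages in each genotype; points are edgeR estimates and bars 95% intervals. Every genotype interval lies below 0, and of the stage intervals the one for tup in homozygotes (-0.32 to 0.27) spans 0.

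In both genotypes the estimated change between the stages differed among the genes, and no test between genes was made. In heterozygotes all 3 rose from stage 5 to stage 6-7, C15 by 3.81-fold, peb by 2.49-fold and tup by 1.66-fold (log2 1.93, 1.31 and 0.73, edgeR adjusted p = 6.29e-06, 2.01e-06 and 0.000245). The stage comparison called 54.9% of all tested genes in heterozygotes and 60.1% in homozygotes, and 28.4% and 31.1% were called higher at stage 6-7, so a rise as such was common.

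In homozygotes peb rose by 2.32-fold (log2 1.22, SE 0.143, edgeR adjusted p = 5.6e-06), close to its rise in heterozygotes. The log2 difference of C15 in homozygotes was 0.94 (SE 0.325, adjusted p = 0.0224 by edgeR), from 1.04 and 0.649 CPM to 1.94 and 1.23 CPM. This call was lost without homozygous stage 5 replicate 2 (log2 0.62, adjusted p = 0.168), without homozygous stage 6-7 replicate 1 (log2 0.57, adjusted p = 0.229) and in limma-voom, where the adjusted p was 0.0889. In edgeR on the 4 homozygous libraries alone the adjusted p was 0.0504. For tup the homozygous libraries of the stages overlapped, at 19.7 and 19.7 CPM and then 20.3 and 18.4 CPM. Its log2 difference was -0.03, with an interval from -0.32 to 0.27 (edgeR adjusted p = 0.876).

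An interaction term tested whether the gap between genotypes changed with stage, and it called 0.0748% of all tested genes. The genotype difference of tup was deeper at stage 6-7 by a log2 value of -0.76 (SE 0.187, interval -1.16 to -0.36, unadjusted p = 0.00123 by edgeR), and this did not pass adjustment over all genes (edgeR adjusted p = 0.208). It passed by DESeq2 (log2 -0.74, adjusted p = 0.0459) and in edgeR without the filter on low counts (log2 -0.75, adjusted p = 0.00202), and over the 16 alternatives the adjusted p ran from 0.00202 to 0.805. C15 had a log2 value of -0.99 (interval -1.85 to -0.12, adjusted p = 0.635 by edgeR), which was -0.63 without homozygous stage 5 replicate 1 and ran from -1.36 to -0.63 over the libraries left out, with no call in any of these fits. For peb the value was -0.10 (interval -0.52 to 0.32, adjusted p = 0.93), so a change of the genotype difference by more than 0.52 on the log2 scale in either direction lay outside its interval. The stage and genotype comparisons use the same libraries and are not independent of each other.

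Ordered by level, both peb and C15 were lowest in stage 5 homozygotes, then stage 6-7 homozygotes, stage 5 heterozygotes and stage 6-7 heterozygotes. No neighbouring groups of that order overlapped. Of all tested genes, 40.3% had higher, non-overlapping stage 6-7 libraries in heterozygotes and 40.9% in homozygotes, and 40.5% had stage 6-7 homozygotes wholly below stage 5 heterozygotes. For peb the highest stage 6-7 homozygote (41.5 CPM) and the lowest stage 5 heterozygote (42.1 CPM) nearly met. For tup the homozygous groups overlapped at the bottom of the order, with means of 19.4 CPM at stage 6-7 and 19.7 CPM at stage 5, and stage 5 and then stage 6-7 heterozygotes lay above them.

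Levels of different genes were set side by side only per kilobase of annotated exon, 7.45 kb for peb, 3.31 kb for tup and 1.86 kb for C15. On that scale tup was the most abundant, peb the next and C15 the scarcest in each of the 8 libraries. In stage 6-7 heterozygotes the levels were 24.4 ± 3.23, 15.7 ± 1.14 and 8.47 ± 1.97 CPM per kb (SD, n = 2). In stage 6-7 homozygotes tup and peb overlapped, at 5.84 ± 0.42 and 4.93 ± 0.913 CPM per kb, while C15 stood at 0.855 ± 0.27. The ratio of peb to C15 per kb was 1.67 and 2.10 in stage 6-7 heterozygotes and 5.32 and 6.45 in stage 6-7 homozygotes. No test of these ratios was made, as each group has 2 libraries.

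Other regulators of the amnioserosa were called in part. Of 9 such genes, edgeR called 3 lower in stage 5 homozygotes and 2 at stage 6-7, beside 1.34% and 1.25% of all tested genes. By DESeq2 5 and 2 were called and by limma-voom 3 and 3, and 6 and 4 had an unadjusted p under 0.05 in edgeR. Over all genes DESeq2 called 255 and 197 and limma-voom 126 and 165. In edgeR 1155 and 706 of all 9360 tested genes had an unadjusted p under 0.05. At each stage 7 of the 9 lay below 0, with median log2 differences of -0.34 and -0.21 beside medians of 0.00 and 0.01 over all tested genes. The genes were ush, which encodes a Friend-of-GATA cofactor (log2 -1.60 and -1.06), the T-box gene Doc2 (log2 -0.91 and -0.90) and, at stage 5, the GATA factor gene pnr (log2 -1.49, edgeR adjusted p = 0.00341). Doc2 lies on arm 3L and pnr on 3R, so both, like C15, lie on the chromosome that differs between the genotypes. For these genes, as for all others here, an effect of the TM3 copy and an effect of zen cannot be told apart. The counts were 3 and 3 without homozygous stage 5 replicate 1, and 4 and 3 without heterozygous stage 6-7 replicate 1. At stage 6-7 the log2 difference of each of these 9 genes was closer to 0 than those of peb, tup and C15. At stage 5 this did not hold, as ush lay below both peb (-1.57) and tup (-1.30), and pnr below tup. The gap-gene factor gene Kr, which is also expressed in the amnioserosa, had log2 differences of -0.03 and 0.11 (edgeR adjusted p = 0.91 and 1).

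**Figure D3:**
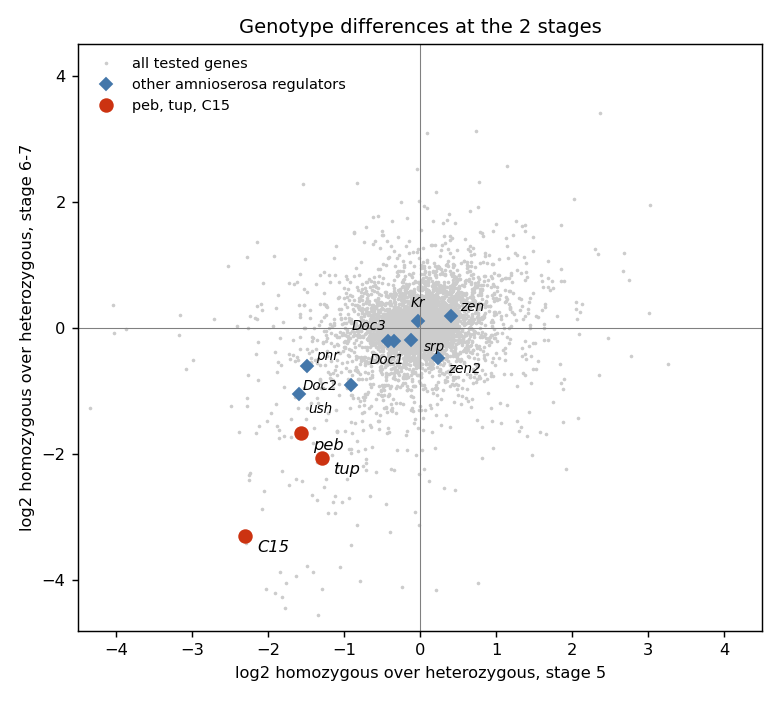
Log2 homozygous over heterozygous at stage 5 (horizontal) and stage 6-7 (vertical) for the tested genes (grey, 14 lying outside the plotted range), 9 other amnioserosa regulators (blue diamonds) and peb, tup and C15 (red circles). The red points lie at -1.57 and -1.67, -1.30 and -2.06, and -2.31 and -3.30, below all blue points on the vertical axis.

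Of 5 genes that act in the mature tissue, edgeR called 1 lower at stage 5 and 3 at stage 6-7. Among all tested genes 1.34% and 1.25% were called lower. DESeq2 called 3 and 3 of the 5, and limma-voom 2 and 3. Ance, which encodes an angiotensin-converting enzyme homologue, was called lower at both stages (log2 -0.74 and -1.22). Dtg and the TNF ligand gene egr were called lower at stage 6-7 (log2 -0.61 and -2.67). Dtg lies on arm 3R, on the chromosome that differs between the genotypes. For it, as for all these genes, an effect of the TM3 copy and an effect of zen cannot be told apart. The call of egr at stage 6-7 had an adjusted p of 0.0249 by edgeR. The EGF pathway genes rho and Egfr were not called.

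Some genes of the BMP pathway, upstream of the 3 genes, were called. Over all tested genes edgeR called 1.62% at stage 5 and 1.77% at stage 6-7, and called 1.34% and 1.25% lower. In each comparison of the genotypes an effect of the TM3 copy and an effect of zen cannot be told apart. The ligand gene dpp had log2 differences of -0.08 and 0.21 (edgeR adjusted p = 0.781 and 0.749). Of 9 ligand and extracellular modulator genes, tok, which encodes a Tolloid-like protease, was called lower at both stages (log2 -0.56 and -1.05), and tsg and cv-2, which encode BMP-binding proteins, at stage 6-7 (log2 -1.06 and -0.53). The modulator gene srw was called higher at stage 5 (log2 0.68, edgeR adjusted p = 0.0145). Of 9 tested receptor and transducer genes, the receptor gene tkv alone was called at stage 5, from 130.4 ± 1.77 to 80.1 ± 5.91 CPM (log2 -0.70, edgeR adjusted p = 0.0205). At stage 6-7 edgeR called 0 of the 9, and 0 had an unadjusted p under 0.05 or were called by DESeq2 or limma-voom.

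Partners and relatives of the 3 proteins were mostly not called. Of 8 tested Notch and ecdysone pathway genes known beside peb, edgeR called 0 at both stages. At stage 5, 1 had an unadjusted p under 0.05 and DESeq2 called 1, at stage 6-7 both numbers were 0, and limma-voom called 0 at both. Over all 9360 tested genes edgeR called 1.62% at stage 5 and 1.77% at stage 6-7, and 1155 and 706 had an unadjusted p under 0.05. Of 6 tested LIM-homeodomain genes and LIM cofactors, to which tup is related, edgeR, DESeq2 and limma-voom called 0 at either stage and 0 had an unadjusted p under 0.05. Chi, the gene of the cofactor that LIM-homeodomain proteins bind, had log2 differences of 0.05 and -0.07. Of 7 tested genes that act with C15 at the tip of the leg, the homeobox gene Dll was called lower at stage 5, from 23.1 ± 1.15 to 9.37 ± 2.95 CPM (log2 -1.29, edgeR adjusted p = 0.0031), with a log2 difference of -0.23 at stage 6-7. Over all tested genes 1.34% were called lower at stage 5.

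The JNK pathway acts in the tissue next to the amnioserosa at dorsal closure, and peb is known to restrain the pathway within the amnioserosa. Of 10 JNK pathway genes edgeR, DESeq2 and limma-voom called 0 at stage 5, and 2 were under 0.05 before adjustment in edgeR. At that stage edgeR called 1.62% of all 9360 tested genes, and 1155 were under 0.05 before adjustment. At stage 6-7 kay, the Fos gene, was called lower, from 15.8 ± 2.66 to 5.20 ± 0.528 CPM (log2 -1.60, edgeR adjusted p = 0.000113). It was the only call among the 10, beside 1.25% of all tested genes called lower at that stage.

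Marker genes of other embryonic cell types were read for comparison (mesoderm, neurectoderm, gut primordia, trachea, pole cells and yolk). Of their 31 tested genes edgeR called 0 at stage 5 and 0 at stage 6-7. Over all tested genes 1.62% and 1.77% were called, so few that 0 of 31 does not set these markers apart. Unadjusted p-values under 0.05 numbered 6 and 3, beside 1155 and 706 of all 9360 tested genes in edgeR. DESeq2 called 1 marker at each stage and limma-voom called 0. The median log2 difference of these markers was -0.06 at stage 5 and -0.05 at stage 6-7. The mesoderm list had a median of -0.24 at stage 5, with 6 of 7 genes below 0 and 2 with an unadjusted p under 0.05, and a median of 0.01 at stage 6-7. Among its genes, Mef2, a muscle transcription factor gene, stood at 21.5 and 15.7 CPM in stage 5 heterozygotes and 8.07 and 12.1 CPM in homozygotes (log2 -0.87, edgeR adjusted p = 0.19). The zinc-finger gene zfh1 stood at 39.5 and 32.2 CPM against 11.1 and 26.7 CPM (log2 -0.91, edgeR adjusted p = 0.483), lowest in homozygous replicate 1, the library that stood apart. The mesoderm gene twi had log2 differences of -0.04 and 0.01. Of the neurectoderm genes, sim had log2 differences of -0.72 and -0.09, Dr of -0.70 and 0.32 and vnd of 0.00 and 0.00, none of them called. In stage 5 homozygous replicates 1 and 2 sim stood at 5.05 and 11.9 CPM and Dr at 1.93 and 5.55 CPM. The part of such cell types in the differences of peb, tup and C15 was not tested.

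Genes whose profile was most like that of each gene were ranked by the root-mean-square difference of log2 CPM over the 8 libraries, each gene centred on its own mean, among 6175 genes. All libraries of a group share genotype and stage, so these values describe the 8 libraries and carry no test. Nearest to peb were FBgn0029082 and FBgn0261613, which have no symbol in the annotation used, at 0.169 and 0.183 log2 units. They were followed by ush (0.248), CG13654 (0.359) and dap (0.364), a gene for an inhibitor of cyclin-dependent kinase. Nearest to tup were Orct2, an organic cation transporter gene (0.265), the homeobox gene HGTX (0.265), kay (0.342), dap (0.393) and the fucosyltransferase gene FucTA (0.396).

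Like tup, the genes Orct2, HGTX and kay had about the same mean level in homozygotes at both stages. They were chosen for likeness to tup over these same libraries, so this follows in part from the choice. Orct2 stood at 4.29 and 4.69 CPM, HGTX at 2.38 and 2.56 CPM and kay at 5.72 and 5.20 CPM. Their heterozygous means were 8.01 and 18.5, 7.07 and 13.8, and 8.32 and 15.8 CPM at the earlier and later stage. The other two did not share that level pattern in homozygotes, where dap had means of 4.95 and 6.71 CPM and FucTA of 4.27 and 2.27 CPM. Orct2 and kay lie on arm 3R and HGTX and FucTA on 3L, so these, like C15, lie on the chromosome that differs between the genotypes. For them, as for dap and tup, an effect of the TM3 copy and an effect of zen cannot be told apart. The nearest gene to C15 was peb itself, at 0.64 log2 units, followed by FBgn0029082 (0.647), FBgn0261613 (0.673), HGTX (0.682) and the receptor tyrosine kinase gene Alk (0.731), and tup ranked 6 (0.783). From the side of peb, tup ranked 17 and C15 34, and from that of tup, peb ranked 10 and C15 139.

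**Figure D4:**
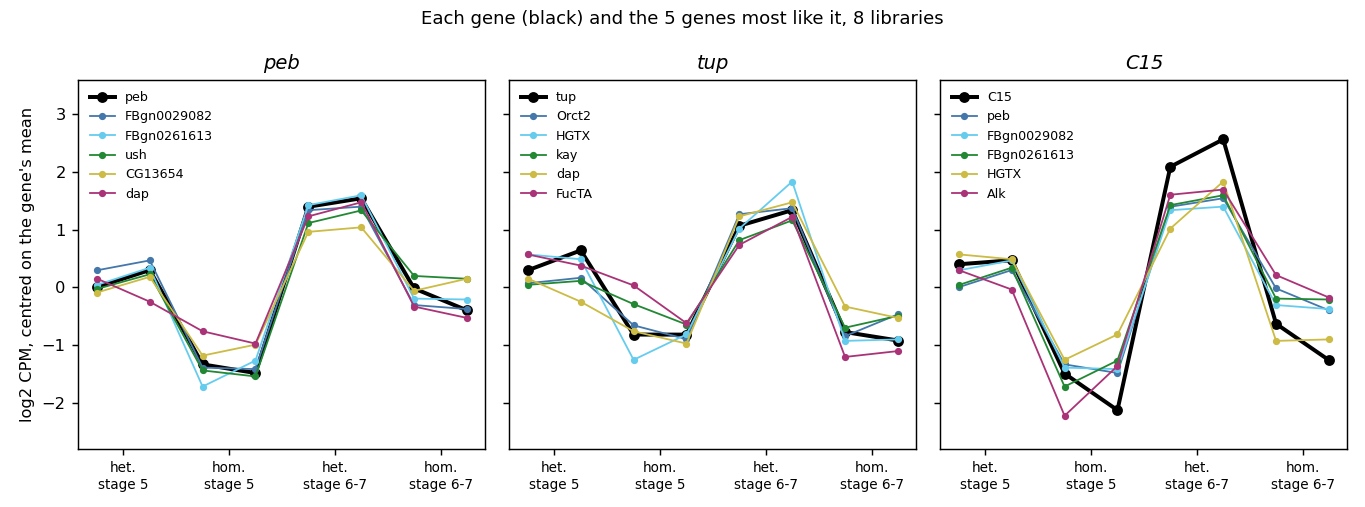
Log2 CPM centred on each gene's mean (vertical axis) in the 8 libraries, 2 per group, for peb, tup and C15 (black) and the 5 genes most like each (colours); lines only join points of a gene. Between the homozygous groups the 5 genes near tup differ: the libraries of Orct2, HGTX and kay overlap, dap lies higher at stage 6-7 (means of 4.95 and 6.71 CPM) and FucTA lower (4.27 and 2.27 CPM).

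Genes that lie beside peb, tup and C15 on the chromosome were read in the same comparisons. Of the 3 nearest tested genes on either side of each, 18 in all, edgeR called 0 at stage 5 and 0 at stage 6-7. It called 1.62% and 1.77% of all 9360 tested genes, so few that 0 of 18 does not set the neighbours apart. Unadjusted p-values under 0.05 numbered 1155 and 706 over all tested genes in edgeR. Beside peb the 6 neighbours had log2 differences of -0.44 to 0.19 at stage 5 and of -0.06 to 0.30 at stage 6-7. At stage 5 DESeq2 called 1 of them, and 1 was under 0.05 before adjustment in edgeR. For tup 2 neighbours had an unadjusted p under 0.05 at stage 6-7, and for C15 1 did. No other neighbour was called by DESeq2, and limma-voom called 0 throughout. Around C15, whose chromosome differs between the genotypes, the flanking genes Fancm and sp3 had log2 differences of -0.12 and -0.20 at stage 5 and of 0.05 and 0.01 at stage 6-7.

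C15 belongs to a cluster of NK homeobox genes with tin, bap, lbe, lbl and slou, of which 3 had enough reads to be tested. The gene slou, which encodes a muscle identity factor and lies next but one to C15 among tested genes, had 14 and 43 reads in stage 6-7 heterozygotes and 2 and 2 in homozygotes. Its log2 difference of -3.77 did not pass (edgeR adjusted p = 0.0763). The mesoderm genes tin and bap had log2 differences of 0.12 and 0.19 at stage 6-7. By edgeR, DESeq2 and limma-voom 0 of these 3 were called at either stage, and 1 had an unadjusted p under 0.05 at stage 6-7 and 0 at stage 5. Over all 9360 tested genes edgeR called 1.77% at stage 6-7 and 1.62% at stage 5, and 706 and 1155 had an unadjusted p under 0.05.

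**Figure D5:**
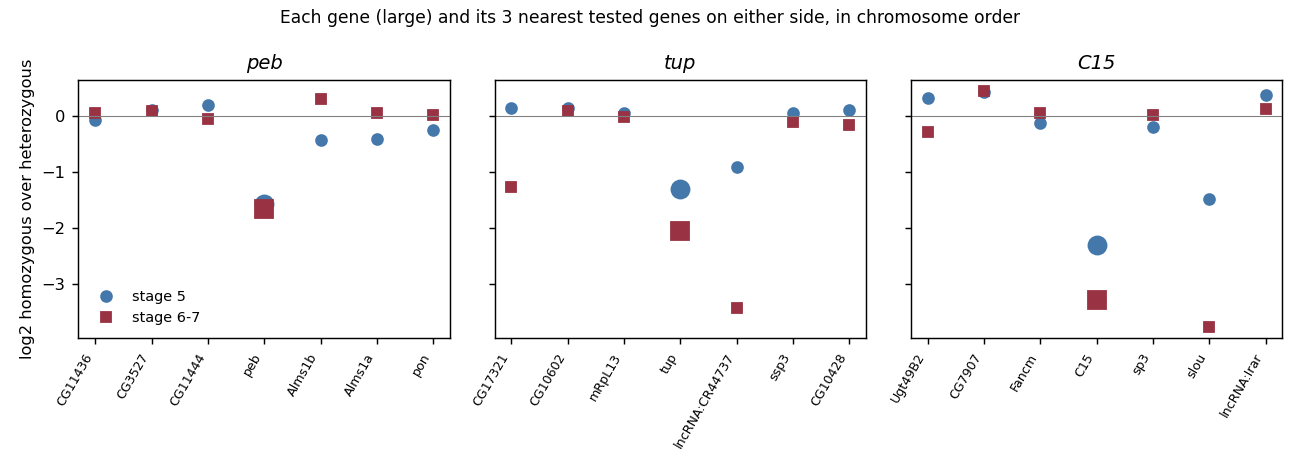
Log2 homozygous over heterozygous (vertical axis) at stage 5 (blue circles) and stage 6-7 (red squares) for peb, tup and C15 (large) and the 3 nearest tested genes on either side of each, in chromosome order without distances. Most neighbours lie near 0, and the low ones at stage 6-7, lncRNA:CR44737 and CG17321 beside tup and slou beside C15 (-3.44, -1.27 and -3.77), had a mean of under 1 CPM and were not called by edgeR.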

How the data were processed

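RNA was measured in 8 libraries of whole embryos. The authors deposited 1 table of whole-number counts of reads per gene for each library, not normalized. STAR and HTSeq were named without versions, per the submitters' processing notes, and which genome build, annotation and strand option they used is not given in the sources used here. Sequencing reads were 100 bp paired with 200 bp inserts, per the labels' protocols. Lines that name no gene held 12.89% to 18.22% of each table and were left out. Of 17468 gene IDs, 17188 matched the Ensembl 115 annotation of BDGP6.54, which gave names, positions and exon lengths.

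Counts were scaled with TMM (factors 0.907 to 1.068), and genes were kept by filterByExpr (minimum count 10). A model with 1 mean for each of the 4 groups was fitted to the 8 libraries (edgeR 4.0.16, R 4.3.3, robust glmQLFit, then glmQLFTest). A gene was called when its p, adjusted over all 9360 tested genes after Benjamini and Hochberg, was under 0.05. Standard errors are the absolute log2 difference over the square root of F. The series' text calls the replicates biological, but the labels do not say how pools were made, so each p-value speaks of the spread among these libraries, which may be technical. Libraries of a group differed by more than counting error in each of the 4 groups (chi-square per degree of freedom 6.92 to 48.8).

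The genes, the lists (17, with 115 symbols, 5 of which did not match) and the tests were chosen with earlier results of these data known. Named genes were the 3 members, the 5 genes most like each (mean of at least 5 CPM, prior count 2), 3 tested neighbours per side, and up to 3 called genes per list with others set beside them. DESeq2 1.42.0, limma-voom (limma 3.58.1), other scalings and filters, a replicate block, the libraries of a contrast alone and leaving out each library were alternatives. Leaving out a library leaves 1 in its group, which is assumed to vary like the others. In simulated data for the stage 6-7 genotype comparison (9168 genes) true changes of 1.5-fold were called in 57.1% of cases and of 2-fold in 80%. Changes of 3-fold were called in 92% and of 4-fold in 93.9%, and 12 of 8970 genes simulated without a change were called. Apart from these changes each simulated gene had the same mean in all groups, with no stage difference, so the rates need not hold for the data. The promoter windows planned for a motif search were not used here, and no sequence is shown.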

Additional observations from a re-analysis of the deposited data

How the results depend on the processing

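For peb, tup and C15 the genotype differences at both stages and the stage differences in heterozygotes kept direction and call under all 17 alternatives each. Depth limits C15 most, with 22 reads in its poorest library. The stage difference of tup in homozygotes, not called, changed sign with library totals alone (0.17, where the median of all genes moved by 0.197), with at least 10 CPM in 2 libraries (0.0022) and without homozygous stage 6-7 replicate 2 (0.047), and ran from -0.10 to 0.047 over the libraries left out. The interaction of peb, not called, changed sign without heterozygous stage 5 replicate 1 (0.046) and without homozygous stage 6-7 replicate 2 (0.081), with a range of -0.30 to 0.081 over the libraries left out, and that of tup gained a call without the low-count filter (-0.75) and by DESeq2 (-0.74). The stage difference of C15 in homozygotes lost its call with its 4 libraries alone (0.93), by limma-voom (0.94) and in 2 of the 8 fits with a library left out, those without homozygous stage 5 replicate 2 (0.62) and without homozygous stage 6-7 replicate 1 (0.57). Over all 8 it ran from 0.57 to 1.28, and the cause was not tested.

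Counts of all called genes moved as well. At stage 5 they were 397 without the low-count filter, 255 by DESeq2 and 66 to 804 with a library left out. At stage 6-7 they were 285 without that filter, 88 with at least 10 CPM in 2 libraries and 89 to 218 with a library left out. For the interaction they were 7 in the fit reported, 11 with TMM factors from genes off chromosome 3, 123 without the filter, 57 by DESeq2, 3 by limma-voom and 3 to 296 with a library left out. The labels do not say that replicate numbers mark a batch, and deviations of same-numbered libraries correlated at -0.0624 to 0.043 across genes. A replicate block moved the calls to 249 at stage 5 and 38 for the interaction, and changed no call of peb, tup or C15.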

Other observations

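Set beside heterozygotes of the earlier stage, homozygotes at stage 6-7 held 78.2% of the stage 5 heterozygous mean for peb (36.7 against 46.9 CPM), 39.8% for tup (19.4 against 48.6 CPM) and 38.4% for C15 (1.59 against 4.13 CPM). These groups differ in genotype and in stage, so the values are given with no test.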
